A study of Mus musculus and Rattus norvegicus with 35 samples.

Results

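The genes described here were 9 transcription factor genes of the early response to neuronal activity, namely Fos, Fosb, Fosl1, Fosl2, Jun, Junb, Jund, Npas4 and Atf3. They were picked out by symbol, in a list drawn up with earlier results of these data known, and all 9 had a row among the 24601 genes of the mouse table and among the 22409 genes of the rat table. The study sequenced RNA of mouse and rat tissues, hippocampal fractions and cultured neurons, chiefly to profile circular RNAs. Gene levels of 28 mouse and 6 rat libraries were used.

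The mice were C57BL/6. Their adult brain, heart, liver, lung and testis gave 1 library a tissue at 14 weeks and 2 at 20 weeks. Hippocampus was taken at embryonic day 18 (E18) and at postnatal days 1, 10 and 30 (P1, P10 and P30), with 2 libraries an age. At 4 weeks, hippocampus gave 1 homogenate library and 1 library of synaptosomes, the pinched-off nerve endings recovered by fractionation. The dendrite-rich neuropil and the cell body layer (somata) of hippocampal field CA1 were dissected from acute slices at 4 weeks, with 1 library each from mouse and from Sprague Dawley rat. Dissociated hippocampal neurons of Sprague Dawley rats, kept 28 days in vitro, received 40 µM bicuculline or water for 12 hours, with 2 libraries each. Bicuculline blocks the GABA-A receptor and so removes synaptic inhibition. Ribosomal RNA had been depleted in every library except 1 oligo(dT)-selected library of 14-week brain, which entered no test. The labels do not say that replicate libraries came from separate animals or cultures, so p-values here measure the spread between libraries, which may be technical.

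The Fos and Jun proteins are basic leucine zipper (bZIP) factors. Fos proteins bind DNA as dimers with Jun proteins, and the dimer is known as AP-1. Synaptic activity raises calcium in the neuron, which acts through kinases on factors already present, chiefly CREB and SRF with its partners, and these switch on Fos and the other early genes without new protein synthesis. Npas4 is a bHLH-PAS factor that pairs with Arnt or Arnt2, and in neurons it is known for its selective response to calcium entry. Atf3, a bZIP factor of the ATF family, is known for induction by stress and injury as well as by activity.

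Values are TPM, transcript abundances scaled by gene length and to the same total in each library, so that levels can be compared between genes. Differences are in log2(TPM + 1), which understates the change of genes at low levels. The depth of the libraries is unknown from TPM. Between 11728 and 15605 genes reached 1 TPM in a mouse library, and between 13007 and 13971 in a rat library. In the adult tissues, the summed markers of heart, liver, lung and testis, and the neuron markers in brain, were higher in every library of their own tissue than in any other. In the cultures, the 6 neuron markers summed to between 3483 and 4275 TPM and the 5 astrocyte markers to between 6293 and 9964 TPM. Endothelial markers summed to at most 4.25 TPM there and microglial markers to at most 16.6 TPM. In bulk RNA of this kind, fewer cells of a type and less RNA per cell cannot be told apart.

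The promoters of 5 of the 7 members called higher under bicuculline are shown, because CREB and AP-1 are both known to act on such promoters. All 5 hold a marked motif, so they are not a neutral sample of the members that rose. Fosb and Fosl2 also rose and are not printed, and the Fosl2 window held none of the motifs searched. The RefSeq table gave a promoter for 8 of the 9 members, in mouse build GRCm38.p6, whereas the cultures were from rat. Each run below is the 200 bases before the annotated start, 5′ to 3′ on the strand of the gene. Capitals mark TGACG (the core of the cAMP response element that CREB binds) or its reverse complement CGTCA, and in Jun also TGACATCA (an AP-1-like element) and, further on, a match to a site known for MEF2.
Fos, chr12:85473690-85473889, plus strand: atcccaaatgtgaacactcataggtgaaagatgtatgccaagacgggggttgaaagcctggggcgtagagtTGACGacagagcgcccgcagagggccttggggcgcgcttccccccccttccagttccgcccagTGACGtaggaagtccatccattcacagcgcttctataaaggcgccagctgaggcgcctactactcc
Junb, chr8:84978749-84978948, minus strand: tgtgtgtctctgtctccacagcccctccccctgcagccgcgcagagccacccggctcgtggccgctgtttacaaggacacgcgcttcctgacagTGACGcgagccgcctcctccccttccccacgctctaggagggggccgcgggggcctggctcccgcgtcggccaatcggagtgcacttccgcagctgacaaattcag
Npas4, chr19:4989972-4990171, minus strand: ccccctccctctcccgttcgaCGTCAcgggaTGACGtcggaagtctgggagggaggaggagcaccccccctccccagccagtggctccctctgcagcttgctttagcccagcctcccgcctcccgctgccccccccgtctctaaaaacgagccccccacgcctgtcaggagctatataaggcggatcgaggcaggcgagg
Atf3, chr1:191183334-191183533, minus strand: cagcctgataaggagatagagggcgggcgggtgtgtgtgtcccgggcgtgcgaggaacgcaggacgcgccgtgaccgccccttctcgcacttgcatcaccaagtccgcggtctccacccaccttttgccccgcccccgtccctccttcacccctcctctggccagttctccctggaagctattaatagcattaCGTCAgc
Jun, chr4:95052223-95052422, minus strand: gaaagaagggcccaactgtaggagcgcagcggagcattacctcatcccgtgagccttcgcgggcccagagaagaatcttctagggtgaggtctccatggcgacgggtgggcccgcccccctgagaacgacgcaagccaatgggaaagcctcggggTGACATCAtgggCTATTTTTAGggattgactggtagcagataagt

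TGACG was found on either strand in 5 of the 8 members, namely Fos, Fosb, Junb, Npas4 and Atf3, and in 15.7% of all 32851 promoter windows of the same length. Fos and Npas4 held 2 matches each. The full palindrome TGACGTCA was in none of the 8 windows and in 1.47% of all windows. The AP-1 site TGANTCA was also in none of the 8, against 5.48% of all windows. Jun held the only matches to TGACATCA, which 2.66% of windows hold, and to the MEF2 site, which 0.09% of windows hold. The CArG box, the SRF site, was in none of the 8 and in 1.18% of all windows. The windows of Fosl2 and Jund held none of these motifs. A match here is a run of letters only, and sites farther upstream were outside the window.

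The first comparison asked how the 9 genes stood after 12 hours without inhibition. After bicuculline 7 of the 9 were higher, and Npas4, Fos, Fosb and Atf3 were among the 8 most increased of the 13341 genes tested. Fosl1 and Jund were not called.

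Among the Fos family, Fos stood at 11.3 and 21.5 TPM in the water libraries and at 911 and 830 TPM in the bicuculline libraries. The groups lay far apart, with a ratio of mean TPM of 53.2, and the difference of 5.71 in log2(TPM + 1) (SE 0.29) had an adjusted p of 0.00452 in limma with Benjamini-Hochberg adjustment over all genes tested. Fosb, a Fos relative whose truncated product is known to accumulate with repeated stimulation, was nearly absent in water, at 0.0815 and 0.323 TPM. It reached 34.8 and 38.4 TPM with bicuculline, a difference of 4.97 (SE 0.22, limma adjusted p 0.00321). Fosb passed the filter of 1 TPM in 2 libraries through the bicuculline libraries alone. Its test and its place in the counts of called members therefore rest on the group where it was high. Fosl2, which encodes the Fos-related antigen Fra-2, was at 25.1 and 20.6 TPM in water and at 201 and 155 TPM with bicuculline. That is a difference of 2.90 (SE 0.18, limma adjusted p 0.00674).

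Fosl1, which encodes Fra-1, was at 6.89 and 8.75 TPM in water and at 11.7 and 9.98 TPM with bicuculline. The groups did not overlap, but the difference of 0.43 (SE 0.21) did not pass the test (limma adjusted p 0.334).

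The Jun family had smaller differences than Fos and Fosb and stood at higher levels in water. Jun was at 52.7 and 80.8 TPM in water and at 226 and 218 TPM with bicuculline, a difference of 1.75 (SE 0.22, limma adjusted p 0.0266). Its call was lost when bicuculline replicate 1 was left out (adjusted p 0.186) and when bicuculline replicate 2 was left out (adjusted p 0.119), while the difference remained between 1.45 and 2.05 over the 4 omissions. Junb, which can hold back the activity of Jun in a dimer, was at 27.1 and 40.4 TPM in water and at 316 TPM in both bicuculline libraries, a difference of 3.22 (SE 0.20, limma adjusted p 0.00674). Jund, the Jun gene known for steady expression, was the highest member in water, at 112 and 85.9 TPM. It stood at 155 and 128 TPM with bicuculline, a difference of 0.51 (SE 0.18) that was not called (limma adjusted p 0.215).

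Npas4 showed the largest ratio of the 9. It was at 2.59 and 1.36 TPM in water and at 591 and 252 TPM with bicuculline, a ratio of mean TPM of 213 and the third largest log2 difference of all genes tested. The bicuculline libraries themselves differed more than 2-fold for this gene, and the difference of 7.05 (SE 0.44) was called (limma adjusted p 0.00674). Atf3 was at 1.91 and 3.27 TPM in water and at 127 and 77.9 TPM with bicuculline, a difference of 4.83 (SE 0.31, limma adjusted p 0.00674).

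The count of 7 of 9 higher and 0 lower stands beside 2.06% of all tested genes called higher and 0.51% called lower. The median difference of the 9 was 3.22, against -0.07 for all genes tested. Leaving out either bicuculline library left 5 members called, since Fosb then had too few libraries at 1 TPM to be tested and Jun lost its call. For each of the 7 called members both bicuculline libraries were above both water libraries. The share of all genes that lay apart in this way was not counted, so this is description only. With bicuculline, the order of mean levels was Fos, Npas4, Junb, Jun, Fosl2, Jund, Atf3, Fosb and Fosl1. In water it was Jund, Jun, Junb, Fosl2, Fos, Fosl1, Atf3, Npas4 and Fosb.

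**Figure D1:**
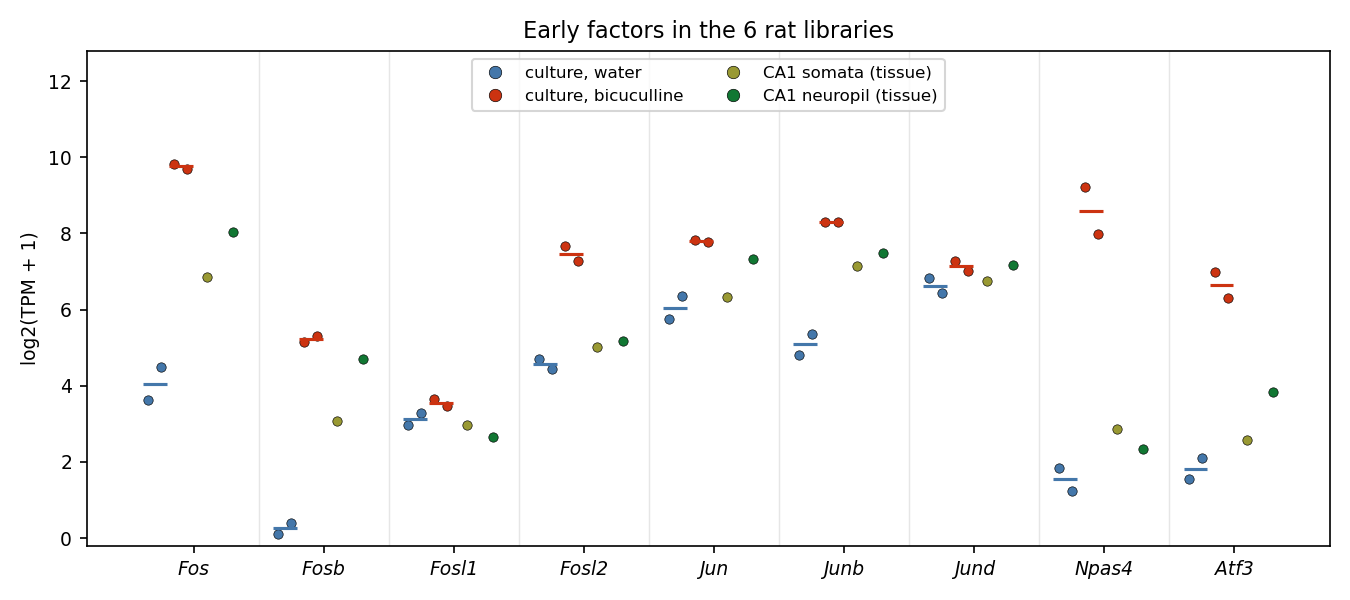
Level of the 9 genes in log2(TPM + 1) in each of the 6 rat libraries; points are libraries and short lines are means of the 2 culture libraries of a treatment. Npas4, Fos, Fosb and Atf3 show the widest gaps between water and bicuculline, and Fosl1 and Jund the narrowest.

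Of 33 other immediate early genes on a list, 31 were tested; 15 were higher and 0 lower, with a median difference of 1.75. The smallest p-values belonged to Nfil3 (difference 4.47, limma adjusted p 0.00165), a bZIP repressor, Dusp1 (3.08, 0.00508), a phosphatase of MAP kinases, and Gadd45b (2.03, 0.00674). The Egr zinc finger genes, usually induced together with Fos, did not all follow. Egr1 was at 5.93 and 3.38 TPM in water and 7.23 and 3.27 TPM with bicuculline, and its difference of 0.10 was not called (limma adjusted p 0.926). Egr2 and Egr3 were not called either, with differences of -0.06 and 0.28, whereas Egr4 was higher (2.14, limma adjusted p 0.0273). Zfp36, whose product destabilizes mRNAs, was not called (0.02, limma adjusted p 0.987). These genes outside the smallest p-values were picked out after their values were seen.

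Of 16 later effectors of activity, 15 were tested, with 9 higher, 0 lower and a median of 2.41. Plk2, a kinase that reduces synaptic strength, differed by 3.66 (limma adjusted p 0.00165). Bdnf, a neurotrophin and a known Npas4 target, differed by 3.72 (limma adjusted p 0.00309). Penk, the enkephalin precursor, differed by 3.36 (limma adjusted p 0.00452). Of the bZIP partners and competitors of AP-1, 15 were tested and only Crem passed, with a difference of 3.08 (limma adjusted p 0.00447) and a list median of 0.53. Of the 22 tested upstream regulators and Npas4 partners, none was higher and Mef2a alone was lower, by -0.82 (limma adjusted p 0.0490), with a list median of -0.15. In limma 0 of the 6 tested heat shock and stress genes were called, and 1 had an unadjusted p under 0.05.

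Of the neuron, astrocyte, oligodendrocyte and progenitor markers 0 were called between treatments by limma, with 2 neuron and 1 progenitor marker at an unadjusted p under 0.05. Oligodendrocyte markers summed to 109 and 310 TPM in water and to 119 and 265 TPM with bicuculline, with overlapping ranges. The part of these cells in the results was not tested.

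**Figure D2:**
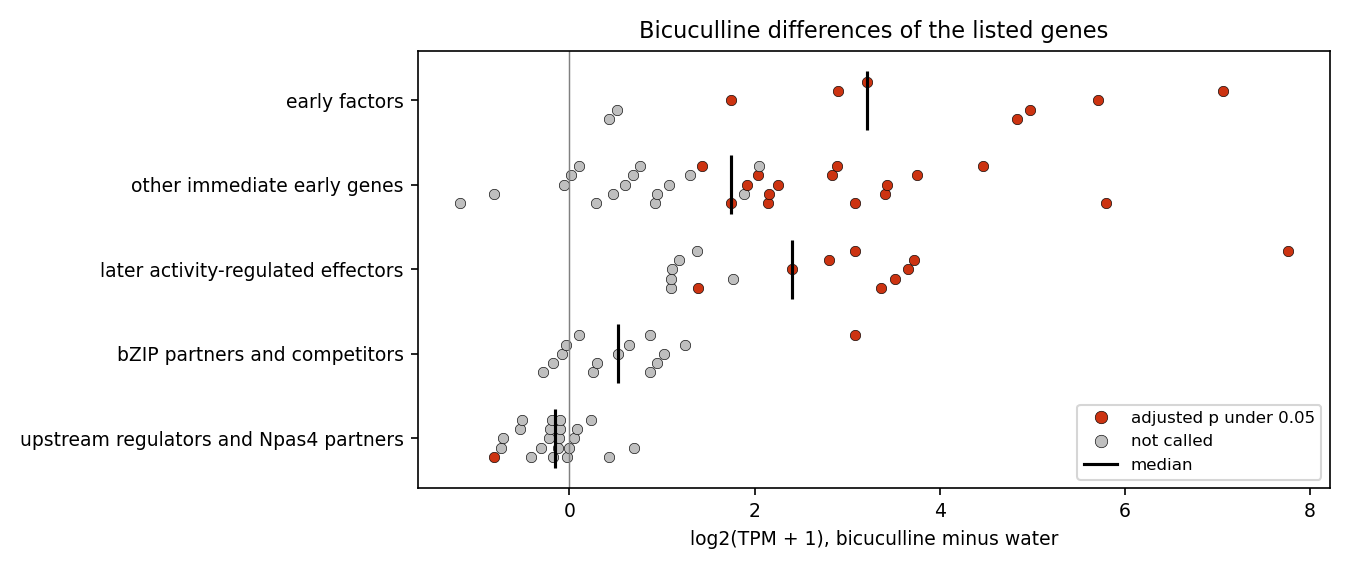
Difference in log2(TPM + 1) between bicuculline and water for each tested gene of 5 lists; each point is a gene, red where the limma adjusted p was under 0.05, and the black line is the list median. The early factors have a median of 3.22 and the upstream regulators one of -0.15.

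The next comparison followed the same genes through hippocampal development in mouse. From E18 to P30, Fos, Jun, Junb, Npas4 and Atf3 were higher, Fosl2 was lower, and Jund was not called. Of the 9 genes 7 could be tested, since Fosb and Fosl1 did not reach 1 TPM in 2 of the 8 libraries.

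Fos was at 1.42 and 2.43 TPM at E18, 6.18 and 7.40 at P1, 9.56 and 9.64 at P10, and 9.63 and 15.5 at P30. Every later library was above both E18 libraries, and the difference between P30 and E18 was 2.20 (SE 0.25, limma adjusted p 7.37e-05). Fos was the only member called between E18 and P1, with 1.43 (limma adjusted p 0.0312). That call was lost in 6 of the 8 omissions of a single library, with adjusted p up to 0.174 without E18 replicate 1, while the difference kept its sign.

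Junb rose after P1. It was at 5.71 and 4.74 TPM at E18, 7.23 and 5.29 at P1, 17.0 and 16.4 at P10, and 45.0 and 37.4 at P30. The P1 and E18 ranges overlapped, and the other ages were apart. Its difference from E18 to P30 was 2.76 (SE 0.19, limma adjusted p 3.35e-06), of which 1.30 fell between P1 and P10 (limma adjusted p 0.00121) and 1.25 between P10 and P30 (limma adjusted p 0.00185).

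Npas4 stood at 0.181 and 0.374 TPM at E18, 0.172 and 0.258 at P1, 1.11 and 1.19 at P10, and 4.18 and 2.80 at P30. The first ages were below 1 TPM and overlapped, so the gene passed the filter through P10 and P30 alone. The difference between P30 and E18 was 1.80 (SE 0.21, limma adjusted p 8.60e-05), with 0.83 between P1 and P10 (limma adjusted p 0.0157) and 1.04 between P10 and P30 (limma adjusted p 0.00657). Without P1 replicate 1, P10 replicate 1 or P10 replicate 2 the step from P1 to P10 was not called (adjusted p 0.0526, 0.0542 and 0.0752), and without P30 replicate 1 the step from P10 to P30 was not called (adjusted p 0.0622).

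Jun was at 19.5 and 18.8 TPM at E18, 20.2 and 16.5 at P1, 27.4 and 18.9 at P10, and 50.6 and 39.6 at P30. Only the P30 libraries stood apart, and the difference from E18 was 1.18 (SE 0.21, limma adjusted p 0.00105). The step from P10 to P30 was 0.95 (limma adjusted p 0.00933), and it was not called without P10 replicate 2 (adjusted p 0.0726) or without P30 replicate 1 (adjusted p 0.0742). Atf3 went from 0.766 and 0.944 TPM at E18 to 2.20 and 2.19 TPM at P30, a difference of 0.79 (SE 0.19, limma adjusted p 0.00534), with no single step called.

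Fosl2 went the other way. It was at 36.8 and 37.6 TPM at E18, 34.1 and 29.9 at P1, 21.7 and 10.9 at P10, and 20.3 and 20.2 at P30. All libraries of P10 and P30 were below all of E18 and P1. From E18 to P30 it fell by 0.85 (SE 0.26, limma adjusted p 0.0193), and the call did not hold without either E18 or either P30 library (adjusted p between 0.0681 and 0.0760). From P1 to P10 it fell by 1.00 (limma adjusted p 0.0158), which was not called without P1 replicate 1 (adjusted p 0.0625) or P10 replicate 2 (adjusted p 0.0937).

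Jund ranged from 26.2 to 72.0 TPM over the 8 libraries. The ages overlapped, and P30 minus E18 was -0.06 (SE 0.46, limma adjusted p 0.919). Fosb was at 0 and 0.0749 TPM at E18 and at 0.832 and 1.86 TPM at P30, with at most 0.319 TPM between, and was not tested. Fosl1 was at 0.106 TPM or less in all 8.

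Over these ages the background was large. From E18 to P30, 5 of the 7 tested members were higher and 1 lower, against 29.5% and 26.8% of all genes, and the members' median was 1.18 against 0.01 for all genes. Between E18 and P1 it was 1 of 7 higher, against 1.2% of genes. Between P1 and P10 it was 2 higher and 1 lower, against 17.2% and 18% of genes. Between P10 and P30 it was 3 higher, against 17% of genes.

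The other immediate early genes did not move as a list. Of 33 tested, 13 were higher and 8 lower at P30, with a median of -0.02. Arc, which acts at dendrites on receptor traffic, differed by 5.11 (limma adjusted p 1.12e-07), Nr4a1 by 2.99 (limma adjusted p 5.89e-06) and Egr3 by 2.61 (limma adjusted p 4.32e-06). Dusp4 (-1.98), Pim1 (-1.66) and Nfil3 (-1.49) were the lower genes with the smallest p. Of 16 later effectors 13 were higher and 1 lower, with a median of 1.42. Those with the smallest p were Scg2 (3.29), Ptgs2 (4.15) and Nrn1 (2.71), while Timp1 was lower (-1.02).

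Of the 17 tested bZIP partners and competitors 4 were higher, with Jdp2 at 2.47, Nfe2l1 at 1.28 and Crem at 1.06, and 7 were lower, with Bach1 at -1.95, Mafk at -1.14 and Bach2 at -1.54. Of the 24 upstream regulators and Npas4 partners 15 were higher and 3 lower. Camk2a, a kinase of excitatory synapses, differed by 5.83, Mkl2 by 2.54 and Mef2d by 1.99, whereas Mapk8 (-1.12), Rps6ka5 (-1.15) and Elk3 (-0.55) were lower. Of the 8 heat shock and stress genes 4 were higher, among them Hspa1b (2.03), Hspa1a (1.76) and Hspb1 (1.10), and 0 lower.

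Cell type markers moved over the same ages. All 5 measured neuron markers, all 5 astrocyte, all 4 oligodendrocyte and all 5 microglia markers were higher at P30, and 3 of 4 progenitor markers and all 3 tested blood markers were lower. Neuron markers summed to 371 and 439 TPM at E18 and to 3747 and 3294 TPM at P30, and oligodendrocyte markers went from 24.6 and 23.7 TPM to 7441 and 6734 TPM. The part of these shifts in the members' values was not tested.

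**Figure D3:**
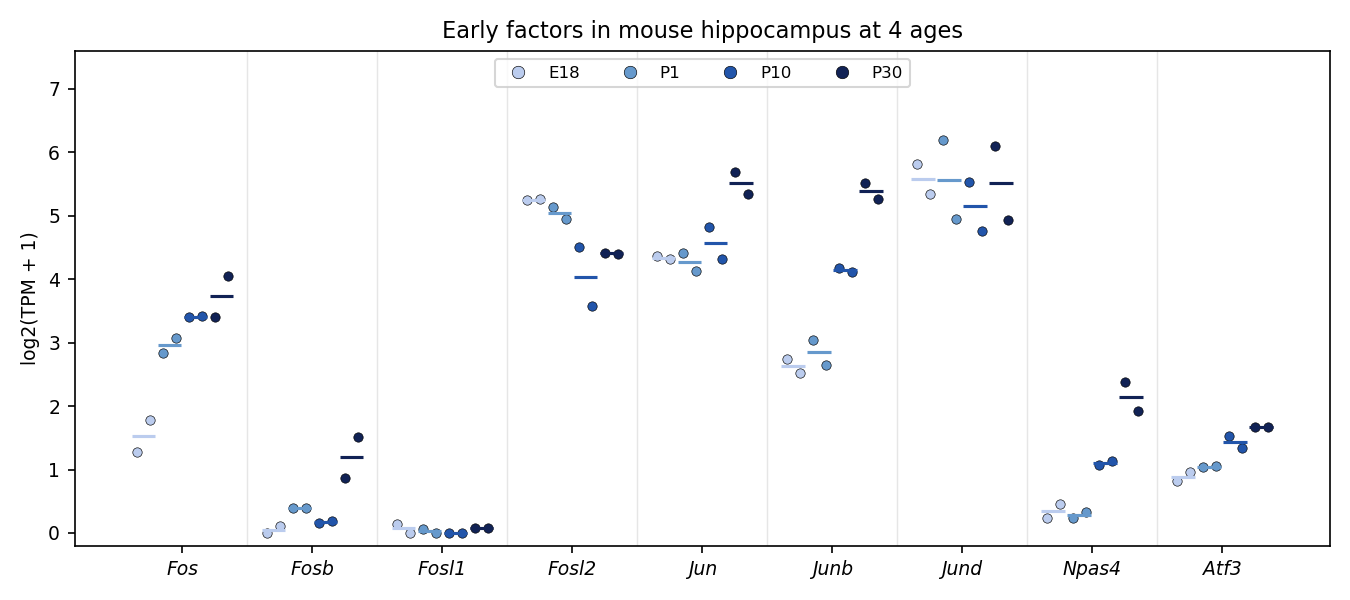
Level of the 9 genes in log2(TPM + 1) in 8 mouse hippocampus libraries at E18, P1, P10 and P30; points are libraries and short lines are means of 2. Junb and Npas4 climb after P1, Fos is already higher at P1, and Fosl2 is lower from P10 on.

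Across adult tissues, each tissue was set against the mean of the other 4. Npas4 and Jund had their highest means in brain, and Fos, Fosb, Fosl2, Jun, Junb and Atf3 in lung. Some of these ranks rested on the 14-week library of the tissue. In the 20-week libraries alone, Fos was at 15.6 to 17.8 TPM in lung and at 31.2 to 36.6 TPM in brain. Fosb and Junb were likewise higher in brain than in lung there, without overlap. Jund was then higher in lung, at 74.1 to 75.8 TPM against 48.4 to 61.3 TPM in brain. The lowest means were in testis for Fos, Fosl2, Junb and Atf3 and in liver for Fosb, Jun, Jund and Npas4. The tissues differ in their bulk composition, and the choice of scaling matters. The median over all 18966 tested genes was 0.34 for brain, -0.38 for heart, -1.02 for liver, 0.42 for lung and -0.41 for testis. Setting the library medians equal lowered every brain value by 0.82 and every lung value by 0.83, and raised liver by 1.30 and heart by 0.29.

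Npas4 was at 7.57, 3.41 and 8.08 TPM in brain and at no more than 0.259 TPM in any of the 12 other libraries. Brain did not overlap any tissue, and the difference of 2.67 (SE 0.16, limma adjusted p 3.35e-09) was 1.85 with equal medians (limma adjusted p 5.00e-07). Npas4 passed the filter of 1 TPM in 3 libraries through brain alone, so these p-values rest on the tissue where it was high. The differences among the other tissues for this gene rest on values below 1 TPM.

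Jun was at 170, 99.4 and 98.0 TPM in lung, between 18.1 and 31.4 TPM in brain and heart, and between 2.08 and 3.05 TPM in liver and testis. Lung stood above every other library, by 3.71 against the mean of the other tissues (SE 0.19, limma adjusted p 1.83e-09) and by 2.87 with equal medians. Brain and heart did not differ beyond their spread, nor did liver and testis. Fosl2 was at 36.0, 35.3 and 35.3 TPM in lung, between 13.0 and 16.8 TPM in brain and heart, between 2.17 and 3.76 TPM in liver and between 0.528 and 1.16 TPM in testis. Its lung difference was 2.48 (SE 0.15, limma adjusted p 7.76e-09). Atf3 was at 21.0, 12.1 and 22.9 TPM in lung, 9.32 to 12.2 TPM in heart, 2.64 to 9.07 TPM in brain, 1.37 to 2.13 TPM in liver and 0.0877 to 0.630 TPM in testis. Lung and heart overlapped, and lung was 2.28 above the other tissues (SE 0.27, limma adjusted p 4.28e-06).

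Fos had its highest single value and its most uneven values in lung, at 325 TPM at 14 weeks and 17.8 and 15.6 TPM at 20 weeks. Brain was at 54.8, 31.2 and 36.6 TPM, heart at 15.7, 2.74 and 1.73, liver at 2.88, 0.927 and 0.454, and testis at 0.324, 0.251 and 0.739. The order of means was lung, brain, heart, liver and testis, and only brain and heart, among neighbours, did not overlap. Junb was at 107, 11.6 and 10.3 TPM in lung, 98.1, 12.1 and 15.0 in brain, 15.6, 4.23 and 4.35 in heart, 8.40, 7.20 and 5.03 in liver and 1.80, 1.07 and 0.693 in testis. Here only liver and testis, among neighbours, did not overlap.

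Jund was at 243, 48.4 and 61.3 TPM in brain, 74.1 to 86.9 TPM in lung, 28.2 to 37.6 TPM in heart, 14.5 to 23.9 TPM in testis and 11.5 to 17.4 TPM in liver. Brain and lung overlapped. Fosb was at 27.6, 1.22 and 1.14 TPM in lung and 6.07, 2.74 and 3.20 TPM in brain, and at or under 0.701 TPM elsewhere. It passed the filter through lung and brain alone. Fosl1 was at 0.198 TPM or less in all mouse libraries, whereas all 6 rat libraries had between 5.34 and 11.7 TPM. The gene models of the mouse and rat tables differ, and this species difference was not tested.

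In brain 7 of the 8 tested members were higher than in the other tissues, against 45.4% of genes; Atf3 was not called, at 0.11. With equal medians, 2 were higher (Fos 2.11 and Npas4), Atf3 was lower (-0.72, limma adjusted p 0.0358), and Jun came to -0.0013. Of all tested genes, 4594 were then called higher and 9342 lower in brain. In lung 7 were higher, against 47.5% of genes, and Npas4 was lower (-0.52), against 25.4% of genes. With equal medians 4 remained called higher in lung, namely Fos, Fosl2, Jun and Atf3, beside 4408 of all tested genes higher and 8893 lower. In heart Fosl2, Jun and Atf3 were higher (0.93, 0.85 and 1.40), against 19.7% of genes, and Npas4 was lower (-0.78), against 45.1% of genes. Equal medians gave the same member counts in heart, beside 5090 of all tested genes higher and 6096 lower.

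In liver 7 of 8 were lower, all but Junb, against 72.6% of genes. That count fell to 1, Jun at -1.40, with equal medians, under which Npas4 was called higher at 0.48 (limma adjusted p 0.0416) although its liver libraries held at most 0.0469 TPM. Of all tested genes, 4333 were then lower and 7670 higher in liver. In testis 7 of 8 were lower, all but Fosb, against 47.8% of genes. With equal medians 7 were also lower there, beside 8705 of all tested genes lower and 6433 higher. The testis values were Fos -3.12, Fosl2 -2.85, Junb -2.73, Jun -2.68, Atf3 -2.64, Jund -1.12 and Npas4 -0.56. Some of these calls rested on single libraries. The Fosb call in liver was lost in 8 of the 15 omissions of 1 library (adjusted p up to 0.102), and that of Fos in liver without 20-week liver replicate 2 (adjusted p 0.0549). The Jund call in testis was lost without the 14-week testis library (adjusted p 0.0584), and omitting either of the 20-week brain libraries removed the Fosb call in brain (adjusted p 0.0524 and 0.0657). The Junb call in lung was lost in 6 of the 15 omissions, with adjusted p between 0.0506 and 0.372.

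**Figure D4:**
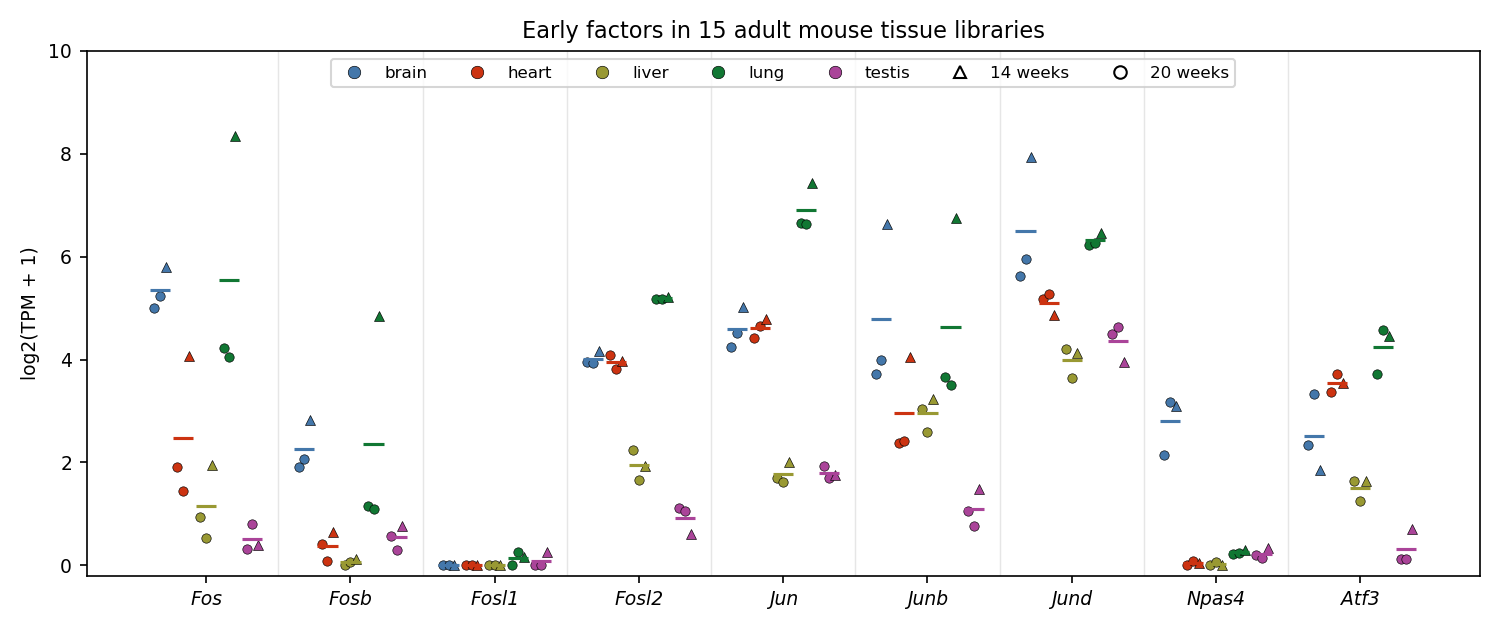
Level of the 9 genes in log2(TPM + 1) in 15 rRNA-depleted adult mouse libraries; triangles are 14-week and circles 20-week libraries, colours are tissues and short lines are means of 3. Triangles lie well above circles for Fos and Junb in lung and for Junb and Jund in brain, and Npas4 is above 1 TPM in brain alone.

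The 14-week libraries stood apart for some members, which led to a direct comparison chosen after the values were seen. With tissue as a factor, Junb was 1.72 higher at 14 than at 20 weeks (SE 0.33, limma adjusted p 0.00589) and Fos 1.67 higher (SE 0.44, limma adjusted p 0.0269). The Junb value at 14 weeks was above both 20-week values in 5 of 5 tissues, and that of Fos in 4 of 5, with testis the exception. In lung the 14-week value was 19.5 times the mean of the 20-week values for Fos, 23.3 times for Fosb and 9.80 times for Junb. In brain it was 7.24 times for Junb, 4.42 times for Jund and 1.62 times for Fos.

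Fosb (1.08, limma adjusted p 0.0840) and Jun (0.40, limma adjusted p 0.0521) were not called, and the 2 of 8 called higher and 0 lower stand beside 8.57% and 4.32% of genes. With equal medians Fos and Junb were again the 2 called (limma adjusted p 0.0189 and 0.00584), but the balance over all genes turned from 1626 higher and 820 lower to 974 higher and 2775 lower. The Fos call was lost without the 14-week lung library (1.03, adjusted p 0.0636) or the 14-week heart library (adjusted p 0.0803). Of the 33 other immediate early genes 6 were higher, namely Pim1, Ier2, Dusp1, Amigo3, Ier5 and Arc, and 0 lower, and of the 16 later effectors none was called. Of those 16, 2 had an unadjusted p under 0.05, and no other tool was run. Tissue markers moved in the same contrast: 3 of 3 testis markers, 2 of 3 heart markers and 1 of 3 liver markers were lower at 14 weeks, while 1 of 4 endothelial markers (Cldn5, 0.83) and 1 of 3 blood markers (Hba-a1, 1.24) were higher. The 5 microglia markers had a median of 0.60 with none called. Outside testis, the testis markers summed to between 0 and 0.93 TPM in the 4 libraries of 14 weeks and to between 5.40 and 26.5 TPM in the 8 of 20 weeks. In brain the heart markers summed to 3.03 TPM at 14 weeks and to 24.0 and 23.8 TPM at 20 weeks. Other markers of a foreign tissue were higher at 14 weeks in some tissues and lower in others. The liver marker Alb was at 56.5 TPM in heart at 14 weeks and at 21.7 and 17.7 TPM at 20 weeks. In lung Alb was at 68.0 TPM at 14 weeks and at 19.4 and 28.2 TPM at 20 weeks. Alb was lower at 14 weeks in brain, at 0 against 16.3 and 27.4 TPM, and in testis, at 0.108 against 14.7 and 21.3 TPM. The lung marker Scgb1a1 was at 13.0 TPM in heart at 14 weeks and at 7.51 and 4.93 TPM at 20 weeks. In brain, liver and testis Scgb1a1 was at 0 TPM at 14 weeks and higher at 20 weeks. The part of these markers' RNA in the members' values was not tested. With 1 library a tissue at 14 weeks, age and any difference in handling or sequencing between the sets cannot be told apart. Without the 14-week lung library, lung was not called for Fosb (0.31, adjusted p 0.201) or Junb (0.63, adjusted p 0.372), and without the 14-week brain library brain was not called for Fosb (1.15, adjusted p 0.144) or Junb (0.95, adjusted p 0.219). The Fos difference of lung was 3.17 with and 1.77 without its 14-week library, and the Jund difference of brain was 1.56 with and 0.85 without its own. Both were still called.

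The oligo(dT)-selected brain library of the same age had Fos at 63.1, Fosb at 11.8, Junb at 71.2, Jund at 114 and Npas4 at 14.2 TPM. The rRNA-depleted 14-week library had 54.8, 6.07, 98.1, 243 and 7.57 TPM for the same genes in the same order. Both 14-week brain libraries were above both 20-week brain libraries for Fos, Fosb, Fosl2, Jun, Junb and Jund. How many of all genes did the same was not counted, so the list is description only. Both were below them for Atf3, at 2.87 and 2.64 TPM against 4.04 and 9.07 TPM. For Npas4 the rRNA-depleted value lay between the 20-week values of 3.41 and 8.08 TPM. The oligo(dT)-selected library also differs from the 20-week libraries in how its RNA was selected.

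The last comparison placed the transcripts within hippocampal tissue. It has no replicate check, since each compartment had 1 library, and a gene was counted where it differed at least 2-fold on log2(TPM + 1).

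In synaptosomes against homogenate, Fos was at 6.05 against 25.4 TPM (difference -1.90), Junb at 25.8 against 69.2 TPM (-1.39) and Npas4 at 1.27 against 3.61 TPM (-1.02). These 3 of the 8 members at 1 TPM or more were at least 2-fold lower, against 14% of genes, and 0 were higher, against 5.83%. Jun was at 27.3 against 45.4 TPM, while Jund (77.4 against 78.5 TPM) and Fosl2 (23.9 against 26.1 TPM) were nearly equal. The nuclear RNAs Meg3, Miat and Malat1 summed to 606 TPM in synaptosomes and 5456 TPM in homogenate. The 5 astrocyte markers summed to 8312 against 1418 TPM, the 5 microglia markers to 511 against 151 TPM, and the 5 measured neuron markers to 1996 against 4258 TPM. All 4 endothelial and all 3 blood markers were at least 2-fold lower in synaptosomes, with sums of 14.6 against 84.8 TPM and 15.2 against 297.5 TPM. Their part in the members' values was not tested. Of the other immediate early genes 18 of 32 were at least 2-fold lower and 0 higher, from Egr2 at -1.98 to Arc at 0.65.

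In CA1 of mouse, Fos was at 77.7 TPM in neuropil and 38.7 TPM in somata, a difference of 0.99. Jun (58.3 and 32.6 TPM), Fosb (4.70 and 2.29 TPM) and Atf3 (7.25 and 3.92 TPM) were also above their somata values, but 0 of 8 members passed 2-fold in either direction on this scale, against 8.22% of genes higher and 0.97% lower. Npas4 was at 3.33 TPM in neuropil and 5.87 TPM in somata, a difference of -0.67 that only 3.93% of genes fell at or below.

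In CA1 of rat, Fos was at 261 TPM in neuropil and 114 TPM in somata (1.18), and Fosb was at 25.1 and 7.39 TPM (1.64). Jun was at 160 and 79.3 TPM (1.01), and Atf3 at 13.2 and 5.01 TPM (1.24). These 4 of 9 were at least 2-fold higher, against 8.35% of genes, and 0 were lower, against 1.47%. Npas4 was again lower in neuropil, at 4.04 against 6.33 TPM (-0.54), as in mouse. Both species are single pairs, so no test of this likeness was made.

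Markers of other cells were higher in neuropil in both species. Astrocyte markers summed to 2919 against 1176 TPM in mouse and 5847 against 2686 TPM in rat, and endothelial markers to 241 against 85.1 TPM and 295 against 125 TPM. Microglial markers summed to 421 against 180 TPM in mouse and 484 against 224 TPM in rat. Oligodendrocyte markers summed to 3431 against 2060 TPM in mouse and 7533 against 4122 TPM in rat. Blood markers summed to 1048 against 420 TPM and 1892 against 1056 TPM. Neuron markers were lower in neuropil in sum, at 2445 against 2828 TPM and 3482 against 4319 TPM. Of these, Gad1 was higher in neuropil in mouse (0.50) and rat (0.72), and Map2 was higher in rat (0.48). The part of these cells in the neuropil values of Fos, Fosb, Jun and Atf3 was not tested.

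Among the listed genes, Plk2 was the lowest of the later effectors in neuropil in mouse (-1.20) and rat (-1.35), and also in synaptosomes (-1.43). The highest of the other immediate early genes in neuropil were Zfp36 in mouse (1.10) and Klf4 in rat (1.42), and the lowest were Nr4a1 (-0.88) and Egr4 (-0.87).

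**Figure D5:**
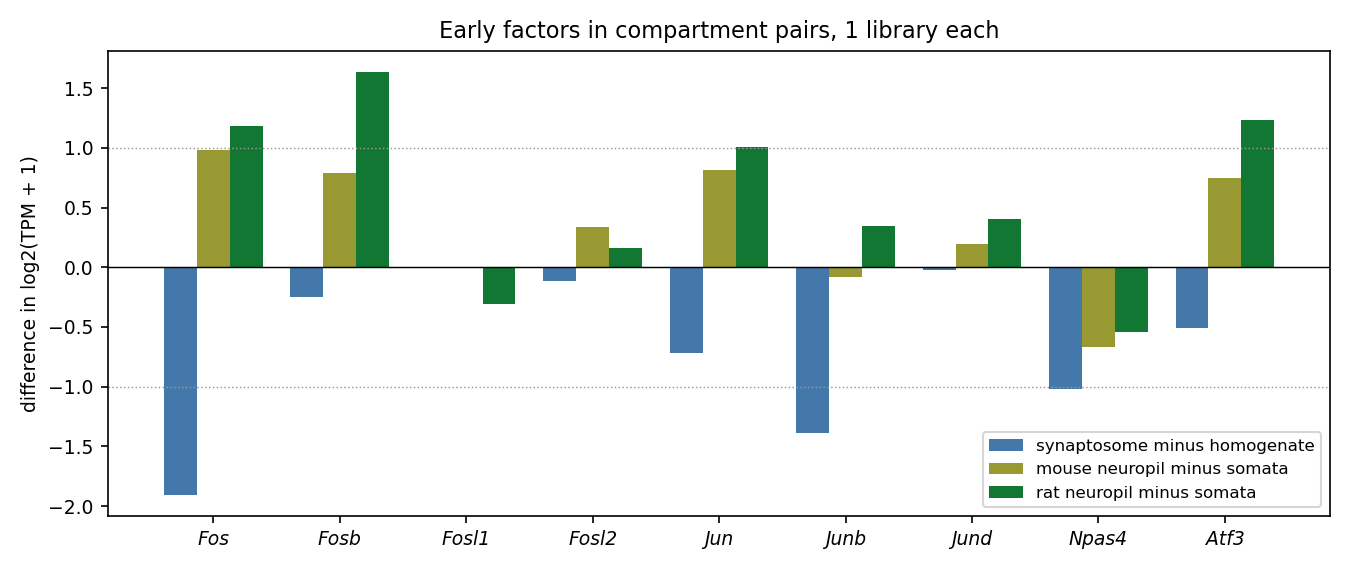
Difference in log2(TPM + 1) for each gene in 3 pairs of single libraries; bars start at 0, dotted lines mark 2-fold, and genes under 1 TPM in both libraries of a pair are not drawn. Npas4 is below 0 in all 3 pairs, while Fos, Fosb, Jun and Atf3 are below 0 in synaptosomes and above 0 in neuropil.

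Setting the rat values side by side, the levels of Fos, Fosb, Fosl2, Junb, Npas4 and Atf3 in CA1 tissue lay between the water and bicuculline cultures. Fosb was at 7.39 TPM in somata and 25.1 TPM in neuropil, against at most 0.323 TPM in water and at least 34.8 TPM with bicuculline. Npas4 was at 6.33 TPM in somata and 4.04 TPM in neuropil, against at most 2.59 TPM in water and at least 252 TPM with bicuculline. These libraries differ in tissue, age and handling, and no test was made between them.

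Over the 27 rRNA-depleted mouse libraries, which mix tissues, ages and fractions, Fos correlated with Junb (Pearson r 0.86) and Fosb (0.85), Jun with Fosl2 (0.85), and Npas4 with Atf3 at 0.05. Many of the libraries share a tissue, so the coefficients are a description only. Among 19310 genes, those most like Fos were Ssh3 (0.90), Sh3bp1 (0.90), Ccdc48 (0.88), D18Ertd653e (0.88) and Coro7 (0.88). Those most like Npas4 were Apol8 (0.97), Nrsn2 (0.96), Pvalb (0.96), Ltk (0.95) and 5730403B10Rik (0.95). For Jun they were Ephb3 (0.96), Pdgfb (0.96), Spnb2 (0.96), Ctdsp2 (0.95) and Shank3 (0.95), and for Atf3 Flt1 (0.93), Utrn (0.93), Tfeb (0.92), Nfkb1 (0.91) and Gpr116 (0.91). Of these genes 14 could be followed over the 6 rat libraries, where 12 of the 14 coefficients were negative, between -0.55 (Coro7 with Fos) and 0.85 (Nfkb1 with Atf3) over all 14.

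Circular RNAs from these genes were nearly absent from the tables. None of 28482 mouse circRNAs and 1 of 18075 rat circRNAs had a member as host. The share of all genes that host a circRNA is not given here, so the count is not read as particular to these genes. That one was assigned to Fosl1, between positions 227755624 and 227758771 of rat chromosome 1 in build rn5. It was at 0.891 RPM in water replicate 2, which was the value of 1 read there, and was listed at 0 in the other 5 rat libraries. A single read is under the limit of 3 counts that a count of 0 allows, so no level or difference was detectable at this depth.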

How the data were processed

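RNA of tissues, hippocampal fractions and cultured neurons had been sequenced on Illumina instruments. Per the submitters' processing notes, the builds were mm9 for mouse and rn5 for rat, and the tools included TopHat2 (version 2.0.6), Cufflinks (version 2.2.1) and CASAVA (version 1.8.2). Which tool called circRNAs was not given in the sources used here. The authors deposited TPM for genes and RPM for circRNAs. A long-read sample of P30 hippocampus was not analysed here.

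Groups came from the labels. The members and all gene lists were chosen with earlier results of these data known. Genes at 1 TPM or more in 2 libraries (bicuculline, ages) or 3 libraries (tissues) were fitted in log2(TPM + 1) with limma 3.58.1 in R 4.3.3 (lmFit, then eBayes with a trend, 2-sided). P-values were adjusted by Benjamini-Hochberg over all genes of a contrast, with a threshold of 0.05. The 4 cultures, the 8 hippocampi and the 15 rRNA-depleted adult libraries were fitted apart. The fit was tested on simulated data. Single-library pairs were described without a test.

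The genes named are the 9 members, up to 3 genes of each list and direction with the smallest p for bicuculline and for P30 minus E18, the extremes of each list in each compartment pair among genes at 5 TPM or more, and the 5 genes most like Fos, Npas4, Jun and Atf3. Genes named by a later choice are marked as such where they appear. Alternatives were pseudocounts of 0.1 and 5 TPM, no filter, equal library medians, no trend, a replicate block, age as a covariate, the 20-week libraries alone and the omission of each library. Promoter windows were cut from RefSeq sequences of GRCm38.p6 and searched for the motifs on both strands. TPM states no depth and no counting error, so precision rests on the number of libraries. RPM steps of 1 read were read from the smallest value above 0 in each library, and 100% of mouse and 99.8% of rat values were whole multiples of it within 0.1.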

Additional observations from a re-analysis of the deposited data

Results flagged for a closer look

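Junb stood on opposite sides of 0 in the 2 species when neuropil was set against somata, at -0.078 in mouse and 0.35 in rat. Each species had 1 pair, and the difference was not tested.

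For 3 members the 14-week library lay above both 20-week libraries in one tissue and below both in another. Jund differed by 2.14 in brain and by -0.61 in testis. Fosl2 differed by 0.21 in brain and by -0.47 in testis, and Atf3 by 0.21 in liver and by -0.97 in brain. These differences between tissues were not tested, since each tissue had 1 library at 14 weeks. How many of all genes changed side in this way was not counted.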

How the results depend on the processing

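The 7 bicuculline calls kept their direction in every alternative run. The count was between 5 and 8, with 5 without either bicuculline library and 6 with no filter or no trend, each time through Jun or through Fosb not being tested. All genes called went from 275 higher and 68 lower to 72 and 6 with no filter, and to 43 lower with no trend. Libraries of the same number deviated together in the cultures (r 0.59 for the single pair of groups), but 2 pairs are too few to take the numbers as pairing. With the replicate block 8 members were called, Jund among them (adjusted p 0.00137), and 1493 genes were higher and 1805 lower. Leaving out 1 library gave between 31 and 370 genes higher and between 2 and 228 lower. Over the ages the correlations of same-numbered deviations ran from 0.06 to 0.35, so the numbers were not taken as pairs. There the replicate block changed no member's call and moved the genes called between E18 and P1 from 186 higher and 81 lower to 420 and 237.

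Between E18 and P1, 0 members were called with a pseudocount of 5 TPM or with no filter, and between 0 and 1 when 1 library was left out. All genes called there went to 125 lower with a pseudocount of 5 TPM, to 17 higher and 0 lower with no filter, and to between 19 and 114 higher and 0 and 66 lower with a library left out. Between P1 and P10, 1 member was called higher with a pseudocount of 5 TPM, between 1 and 2 higher and between 0 and 1 lower with a library left out, with between 1205 and 2836 of all genes lower and 1589 and 2572 higher. From E18 to P30 between 0 and 1 was lower with a library left out, and from P10 to P30 between 1 and 4 were higher, with between 1220 and 3028 of all genes higher and 815 and 2098 lower. With equal medians 3314 genes were lower from P10 to P30 in place of 1929. Jund between E18 and P30 was between -0.65 and 0.52 over the omissions.

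In the tissues, equal medians gave 2 members higher and 1 lower in brain, 1 and 1 in liver and 4 higher in lung. Higher calls made up 33.0% of all calls in brain (61.9% before), 63.9% in liver (13.0% before), 33.1% in lung (65.1% before) and 45.5% in heart (30.4% before). All genes called became 4594 higher and 9342 lower in brain, 7670 and 4333 in liver, and 4408 and 8893 in lung. Reversed signs under equal medians were Jun (-0.0013) and Atf3 (-0.72) in brain, Jund (0.10) in heart, and Junb (0.88), Npas4 (0.48) and Atf3 (0.15) in liver. Atf3 in brain was -0.11 with a pseudocount of 5 TPM and between -0.31 and 0.43 over the omissions. With the 20-week libraries alone, Jund in heart was 0.094, Junb in liver was 0.13, 3 members were lower in heart and 0 lower in lung. Lung also had 0 lower with a pseudocount of 0.1 TPM. With a library left out, brain had between 4 and 7 members higher, heart between 0 and 2 lower and lung between 0 and 1 lower. Between 14 and 20 weeks 1 member was higher with a pseudocount of 5 TPM and between 1 and 3 with a library left out, and 974 genes were higher and 2775 lower with equal medians, against 1626 and 820, and between 927 and 2815 higher and 512 and 930 lower with a library left out. Mouse neuropil had 2 members at least 2-fold higher with a pseudocount of 0.1 TPM. The cause of these changes was not tested, except that equal medians shift all genes of a library alike.

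A library left out where a group had 2 leaves a lone library, which was assumed to vary like the others. TPM gives no depth, and members below 1 TPM, such as Npas4 outside brain and Fosb before P30, sit where a difference is hard to detect.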
